A study of Mus musculus with 2 samples.

Results

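The complement system was followed in sorted marrow niche cells of transplanted mice that had or had not developed acute graft-versus-host disease (aGVHD, an attack of donor T cells on the recipient). It was followed through 29 genes that encode its components, regulators and receptors. They were chosen by name, and all 29 were found among the 54532 genes of the deposited table. Marrow niche cells had been sorted by removing cells that carried CD45, a lineage antigen or CD71, and dead cells had been left out with Calcein AM and DAPI. The recipients of both groups were female CB6F1 mice irradiated with 2 doses of 4.0 Gy. Each received 5000000 nucleated marrow cells of B6.SJL mice 4 hours later. The aGVHD group, labelled aGVHD_V, was additionally given 60000000 spleen cells of female C57BL/6 mice, and the BMT group was not. The labels do not say what the V stands for, how old the mice were, when they were sampled or whether mice were pooled. Each group had 1 library, called BMT and aGVHD_V below, so no difference below has a replicate check and no test between the groups was made.

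Complement is a cascade of plasma proteins that marks targets for uptake and can open pores in membranes. The classical pathway starts when C1q binds and activates the proteases C1r and C1s, and C1s cuts C4 and C2. The lectin pathway reaches the same step through mannose-binding lectin and the MASP proteases, and the alternative pathway amplifies the cleavage of C3 through factors B, D and properdin. Inhibitors in plasma and on cell surfaces hold the cascade in check, and receptors on leukocytes read its fragments. The liver makes much of the plasma pool, while C1q is made largely by macrophages and properdin by myeloid cells.

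As deposited, transcripts of the C1 proteases C1ra and C1s1, of C4b and of the soluble inhibitors Serping1 and Clu were lower in aGVHD_V, whereas those of C1q, C3, properdin and the C5a receptor C5ar1 lay within 2-fold. Levels are given as FPKM, fragments normalised to gene length and to a scaled library size. A gene counted as measured if its FPKM reached 1 in either library. It was called 2-fold lower or higher when log2(FPKM + 1) differed by 1 or more, a scale that understates the difference of low genes. Of the 29 genes, 24 had reads in at least 1 library and 20 were measured. 9 were at least 2-fold lower in aGVHD_V (C1ra, C1s1, C1s2, C4b, Cfd, Serping1, Clu, Colec12 and C5ar2), 11 lay within 2-fold and 0 were higher. Over all 12942 measured genes 19.4% were at least 2-fold lower and 8.65% were higher. C1ra, C1s2, C5ar2 and Colec12 passed the minimum only through BMT and had no reads in the other, so they had to be called. With genes without reads in 1 library set at their floor, described with C1ra below, 7 members were lower and 0 higher, beside 7.63% and 5.83% of all measured genes. At an FPKM minimum of 5, 7 of 16 members were lower and 0 higher, and over all 8000 genes past that minimum 10.7% were lower and 7.7% higher. The median difference over the 20 measured members was -0.72 on the log2(FPKM + 1) scale, and over all measured genes it was -0.07.

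**Figure D1:**
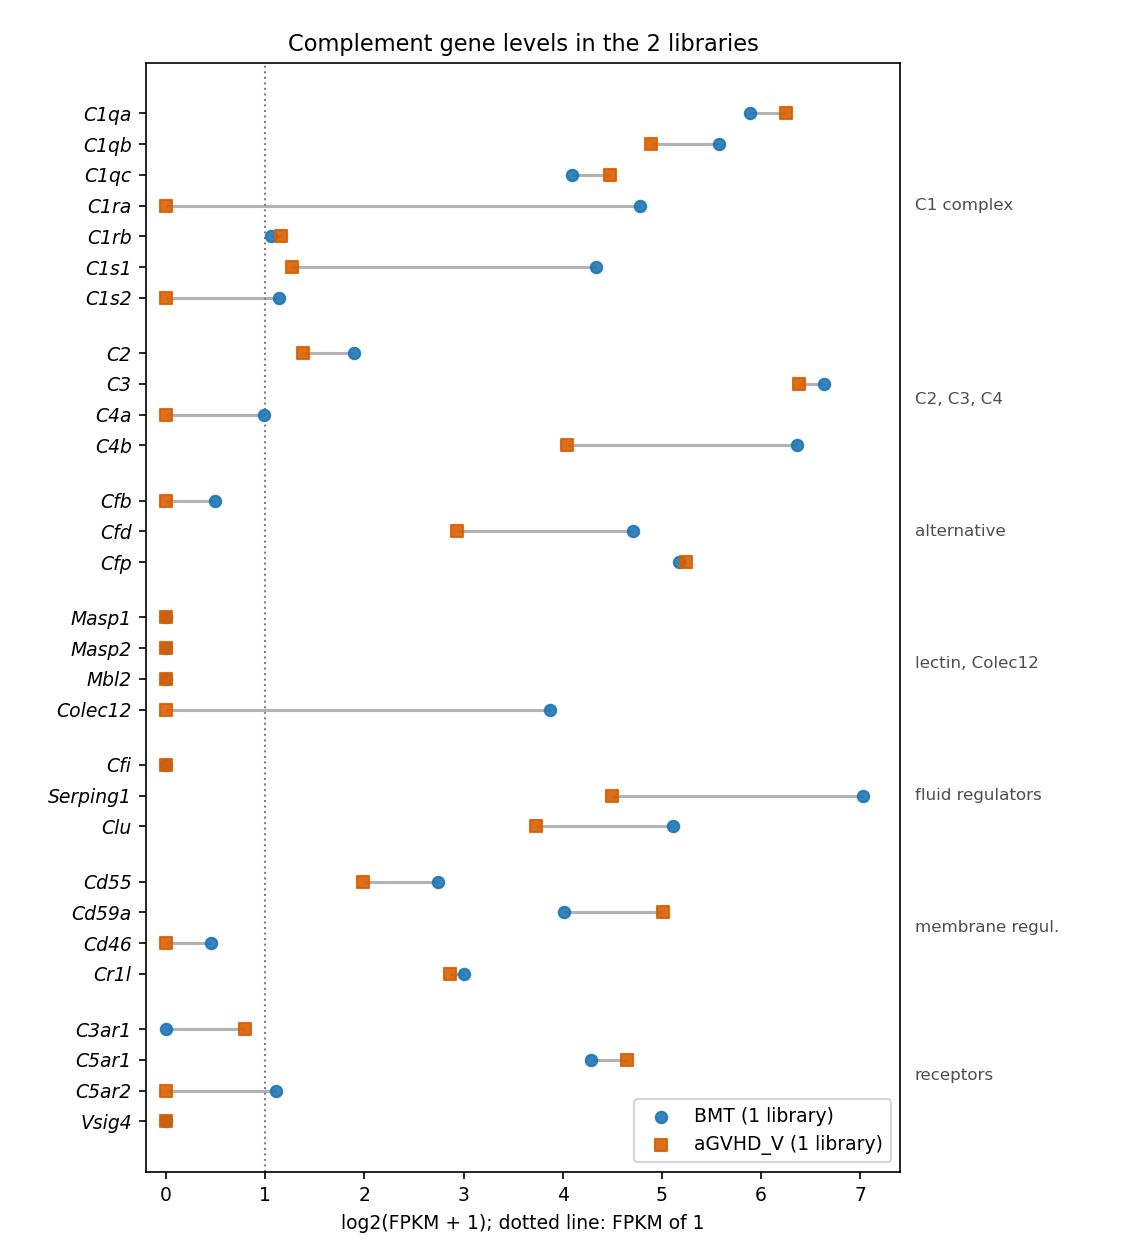
Level of each of the 29 complement genes as log2(FPKM + 1) in BMT (circles) and aGVHD_V (squares), grouped by role, with a line joining the values of a gene. The longest lines belong to C1ra (FPKM 26.5 and 0) and Colec12 (13.7 and 0), whereas the symbols of Cfp (35.1 and 36.8) nearly coincide.

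The promoters of a C1 protease pair that differed between the libraries are shown. Those of C1rb, the near-identical copy of C1ra, and of C3, the hub of the cascade, stand beside them. Their letters do not tell how reads were divided between the copies. RefSeq windows of build GRCm38.p6, from 250 bases before to 50 bases after the start, were found for 19 of the 29 members (21 windows). Capitals mark the letters of a C/EBP motif (TTGCNNAA), searched on both strands.
C1ra (chr6:124512371-124512670, plus strand): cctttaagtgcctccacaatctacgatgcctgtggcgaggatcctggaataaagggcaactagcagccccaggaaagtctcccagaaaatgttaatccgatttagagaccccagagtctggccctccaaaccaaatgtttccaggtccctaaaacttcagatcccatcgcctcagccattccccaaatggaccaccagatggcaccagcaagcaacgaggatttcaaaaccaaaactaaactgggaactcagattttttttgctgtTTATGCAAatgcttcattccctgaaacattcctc
C1rb (chr6:124570180-124570479, plus strand): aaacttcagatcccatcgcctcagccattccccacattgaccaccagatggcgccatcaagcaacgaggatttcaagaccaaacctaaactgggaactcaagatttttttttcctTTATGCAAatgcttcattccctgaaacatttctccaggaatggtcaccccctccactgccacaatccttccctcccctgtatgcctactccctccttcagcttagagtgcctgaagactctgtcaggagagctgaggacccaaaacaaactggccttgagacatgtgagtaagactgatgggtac
C1s1 (chr6:124542310-124542609, minus strand): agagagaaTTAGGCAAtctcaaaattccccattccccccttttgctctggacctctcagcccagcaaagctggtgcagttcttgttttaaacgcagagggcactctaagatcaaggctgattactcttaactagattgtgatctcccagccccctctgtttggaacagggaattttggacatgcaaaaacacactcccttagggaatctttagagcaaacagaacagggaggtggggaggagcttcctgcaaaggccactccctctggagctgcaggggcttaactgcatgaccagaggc
C3 (chr17:57228087-57228386, minus strand): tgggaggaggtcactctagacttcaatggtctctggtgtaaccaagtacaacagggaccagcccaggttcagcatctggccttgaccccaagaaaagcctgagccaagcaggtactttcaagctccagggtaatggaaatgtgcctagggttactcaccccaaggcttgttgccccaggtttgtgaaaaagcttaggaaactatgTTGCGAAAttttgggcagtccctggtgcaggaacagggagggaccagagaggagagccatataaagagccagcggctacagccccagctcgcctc

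The C1ra window held a C/EBP motif beginning at base 17 after the RefSeq start. The C1rb window held the same letters at base -135. The stretch around them is shared. Over 148 aligned bases the windows were 93.9% identical, with a longest identical run of 34 bases. In the deposited table C1ra starts 216 bases and C1rb 136 bases upstream of these RefSeq starts, so the windows sit differently on the gene models behind the counts. C1s1 had a C/EBP motif at base -242 and none of the letters searched in a window at a further RefSeq start, and C3 had a C/EBP motif at base -45. Among 19 members with a window, a C/EBP motif was found in 5 (C1ra, C1rb, C1s1, C3 and C5ar2). It was in 10.8% of all 32851 windows, a share of windows and not of genes. Each gene shown is among these 5, so the windows shown do not represent the members. The IRF motif (GAAA, any 2 bases, GAAA, in 3.44% of all windows) was in the windows of Cd46 and Cd59a, and the NF-kB motif (GGGA, any base, TTTCC, in 0.411%) was in 0 member windows. These matches describe letters and not binding.

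C1q, the recognition part of the classical pathway, is built from chains encoded by C1qa, C1qb and C1qc, which lie side by side on the minus strand of chromosome 4 (136880129 to 136898803, GRCm38). C1qa had an FPKM of 58.1 in BMT and 75.2 in aGVHD_V, from 733 and 834 reads. C1qb had 46.7 and 28.6, from 616 and 332 reads. C1qc had 16.1 and 21.2, from 376 and 436 reads. The A and C chains were thus higher in aGVHD_V as deposited and the B chain lower, although the chains assemble into 1 protein. The ratio of aGVHD_V to BMT was 1.29 for C1qa (widened 95% interval 0.722 to 2.23), 0.613 for C1qb (0.242 to 1.34) and 1.32 for C1qc (0.567 to 2.82), and each interval included no difference. These intervals cover counting error only. They treat the modal read number of detected genes, 14 in BMT and 44 in aGVHD_V, as 1 count, because reads of few starting molecules are not independent. With the FPKM of each library scaled to the same sum, C1qa (0.867) and C1qc (0.883) came out below 1, and C1qb (0.411) was called at least 2-fold lower, as it also was with aGVHD_V alone rescaled. C1qa exceeded C1qc 3.62-fold in BMT and 3.55-fold in aGVHD_V, while it exceeded C1qb 1.24-fold and 2.63-fold. Summed over the chains, C1q stood at an FPKM of 121 and 125.

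C1ra and C1s1, which encode the proteases that C1q activates, were lower in aGVHD_V. C1ra (ENSMUSG00000055172, chromosome 6, 124512405 to 124523443, plus strand) had 958 reads in BMT, an FPKM of 26.5, and 0 reads in aGVHD_V. Taking 3 counts of the modal read number as the floor of a library, 132 reads or an FPKM of 4.15 for this gene, C1ra was at least 6.38-fold lower. This bound uses the FPKM in BMT as it stands and leaves out its counting error (20.6 to 33.6). C1s1 (ENSMUSG00000038521, chromosome 6, 124530345 to 124542359, minus strand) had an FPKM of 19.2 from 728 reads in BMT and 1.41 from 47 reads in aGVHD_V. It was 13.6-fold lower as deposited, with a wide interval of 2.45 to 448 because its reads in aGVHD_V amounted to about 1 count. Those reads lie under the floor, and with aGVHD_V set at the floor (FPKM 3.96) the fold would be 4.85. The copies were scarce. C1rb had an FPKM of 1.09 and 1.24 from 32 reads in each library, and C1s2 had 1.21 and 0. Both were at or under the floor of 42 and 132 reads in each library, and no fold is given. Their longest annotated transcripts were 98.0% (C1ra and C1rb) and 96.0% (C1s1 and C1s2) identical over the aligned bases, so how reads were divided between copies is uncertain.

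The substrates and the central component differed among themselves. C3, whose cleavage is the step shared by all pathways, had an FPKM of 98.2 from 6127 reads in BMT and 82.4 from 4516 reads in aGVHD_V. C3 was 1.19-fold lower (interval 0.96 to 1.49, which included no difference), and its ratio was 0.561, outside that interval, with the equal FPKM sum. C4b, the substrate of C1s, had an FPKM of 81.1 from 5604 reads and 15.5 from 941 reads. C4b (ENSMUSG00000073418, chromosome 17, 34728380 to 34743882, minus strand) was 5.24-fold lower (3.39 to 8.51). The ratio of C3 to C4b was thus 1.21 in BMT and 5.31 in aGVHD_V. C2, the second substrate, was low in both libraries at 2.73 and 1.6 (128 and 66 reads), and its interval of 0.304 to 26.8 for the fold included no difference. The table classes C4a as a processed transcript, and it had 74 reads (FPKM 0.983) and 0. Its longest transcript was 96.1% identical to that of C4b, which leaves the division of reads between them uncertain.

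**Figure D2:**
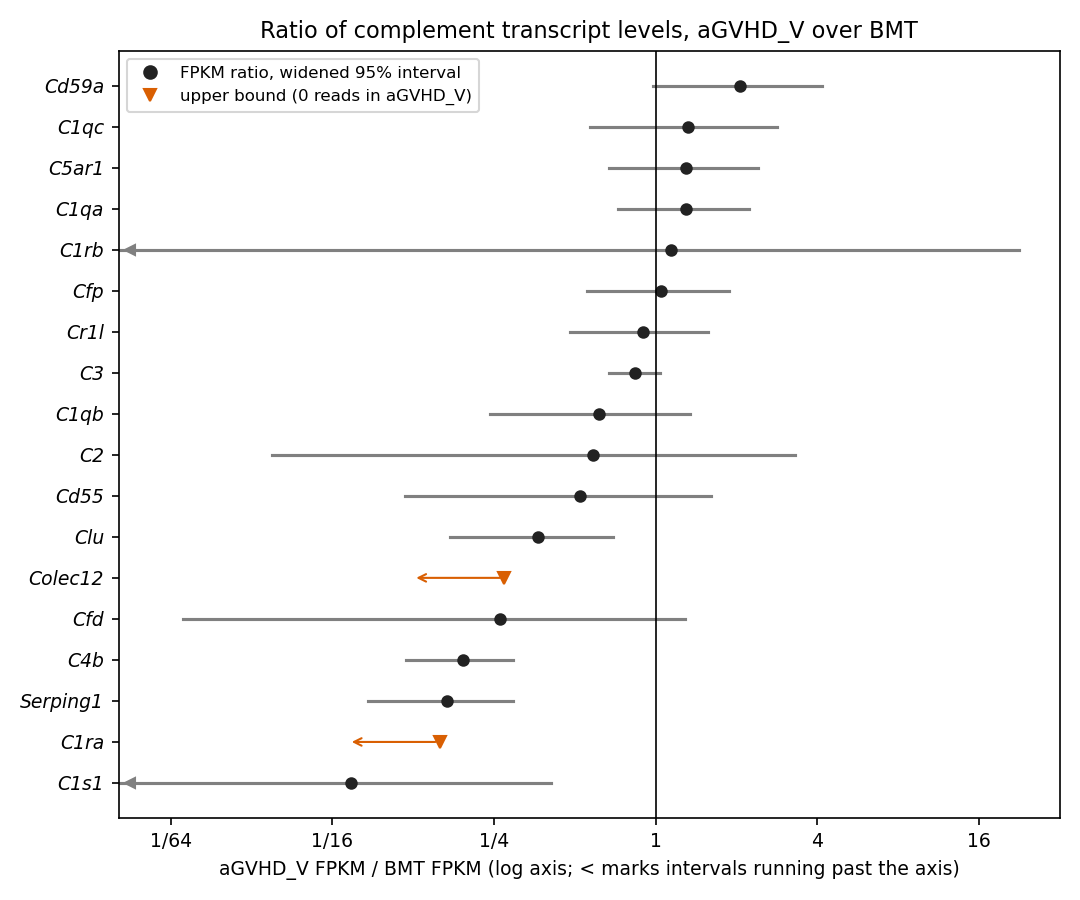
Ratio of FPKM in aGVHD_V to that in BMT on a log axis, for the complement genes with reads in both libraries (points with widened 95% intervals of counting error) or with a bound against 0 reads (triangles with arrows). The intervals of C1s1, Serping1, C4b and Clu lie below 1, and that of Cd59a (0.976 to 4.17) reaches just under it.

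The alternative pathway was represented mainly by properdin and factor D. Cfp, the stabiliser of the C3 convertase, had an FPKM of 35.1 in BMT and 36.8 in aGVHD_V, from 738 and 681 reads. Its ratio of 1.05 (0.554 to 1.88) fell below 1 (0.703) with the equal FPKM sum. Cfd, adipsin, the protease that cuts factor B and a product of fat cells, had 25.1 and 6.61, from 281 and 65 reads. Cfd was 3.8-fold lower as deposited, but its interval of 0.779 to 57.8 included no difference, and with aGVHD_V set at the floor the fold would be 1.87. Cfb, factor B itself, had 14 reads in BMT and 0 in the other, under the floor of each library. Cfb and C2 are overlapped by the read-through gene Gm20547, which was listed at 0, and C2 also by Zbtb12 on the opposite strand. Whether strand was used in counting is not given.

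The lectin and proteases of the lectin pathway among the members were not detected. Mbl2, a mannose-binding lectin, and the proteases Masp1 and Masp2 had 0 reads in both libraries, which allows an FPKM of up to 11.2, 1.26 and 3.74 in aGVHD_V, where the floor is higher. Colec12, a membrane scavenger receptor with a collectin domain, had 551 reads (FPKM 13.7) in BMT and 0 in aGVHD_V. By the same kind of bound as for C1ra, it was at least 3.67-fold lower.

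Both soluble inhibitors with reads, Serping1 and Clu, were lower. Serping1, the C1 inhibitor that removes C1r and C1s from the C1 complex, was the most abundant of the 29 genes in BMT, with an FPKM of 129 from 3643 reads. It had 21.5 from 533 reads in aGVHD_V, where it was in 7th place. Serping1 (ENSMUSG00000023224, chromosome 2, 84765387 to 84775444, minus strand) was 6.01-fold lower (3.39 to 11.7). Clu, clusterin, a chaperone that also blocks assembly of the membrane attack complex, had 33.6 and 12.3, from 1400 and 450 reads. Clu was 2.74-fold lower (1.44 to 5.82). Cfi, factor I, the protease that inactivates C3b and C4b, had 0 reads in both libraries.

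Each membrane regulator with reads in both libraries had an interval that included no difference. Cd59a, which blocks the final step of pore formation, had an FPKM of 15.1 from 332 reads in BMT and 31.1 from 601 reads in aGVHD_V. Its ratio of 2.06 (0.976 to 4.17) was the highest of the members with reads in both libraries, but its interval included no difference and its difference of 0.995 on the log2(FPKM + 1) scale lay just under the call. Cd55, which speeds the decay of convertases, had 5.68 and 2.96, a 1.92-fold lower level (0.622 to 8.6). Cr1l, the mouse regulator Crry, had 7.04 and 6.3, a ratio of 0.894 (0.48 to 1.57). Cd46, a cofactor of factor I, had 34 reads and 0, an FPKM of 0.369 in BMT.

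Among the receptors, C5ar1, through which C5a attracts and activates myeloid cells, had an FPKM of 18.5 from 576 reads in BMT and 24.0 from 658 reads in aGVHD_V. The ratio of 1.3 (0.668 to 2.4) included no difference and was 0.87 with the equal FPKM sum. C5ar2, the other C5a receptor, had 50 reads (FPKM 1.16) and 0. C3ar1, the C3a receptor, had 0 and 34 reads (FPKM 0.741 in aGVHD_V). Vsig4, a receptor for C3b on tissue macrophages, had 0 reads in both libraries. Except for C5ar1, the receptors were too low for a fold.

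The make-up of complement transcripts differed between the libraries. Summed FPKM over the 29 genes was 637 in BMT and 369 in aGVHD_V. Serping1 held 20.3% of this sum in BMT and 5.82% in aGVHD_V, and C4b 12.7% and 4.19%. The C1q chains together held 19.0% and 33.8%, C3 15.4% and 22.3%, Cfp 5.5% and 9.96%, and Cd59a 2.37% and 8.43%. In order of level, BMT had Serping1, C3, C4b, C1qa and C1qb in its first places, and aGVHD_V C3, C1qa, Cfp, Cd59a and C1qb. Neighbours in the second order overlapped in their counting intervals, for example C3 (67.2 to 99.9) with C1qa (45.3 to 118).

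**Figure D3:**
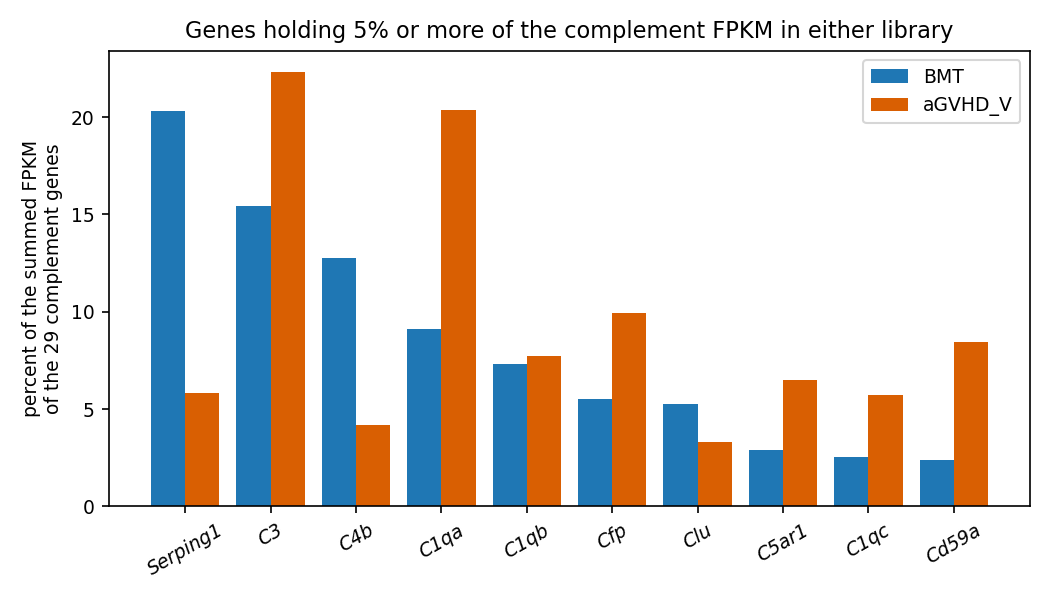
Percent of the summed FPKM of the 29 complement genes held by each gene with 5% or more in either library, BMT and aGVHD_V side by side, with bars starting at 0. Serping1 (20.3% and 5.82%) and C4b (12.7% and 4.19%) had the smaller bar in aGVHD_V, and C1qa (9.13% and 20.4%) and Cd59a (2.37% and 8.43%) the larger.

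Other genes of the pathway, from a list of 34 outside the members, were read the same way. Of these, 15 had no reads in either library, among them C7, C8a, C8b and C9 of the membrane attack complex and Cr2, a complement receptor of B cells (named after their values were seen). 14 genes were measured, of which 6 were at least 2-fold lower, 2 higher and 6 within 2-fold, with a median of -0.65, beside the 19.4% and 8.65% over all measured genes. Among those 6, 5 were without reads in aGVHD_V and passed the minimum only through BMT, so they had to be called, and the count was 3 with genes without reads at their floor. Ptx3, a pentraxin that binds C1q, had 482 reads (FPKM 14.8) and 0, at least 3.21-fold lower by the same kind of bound as for C1ra. Fcna, a ficolin of the lectin pathway made by macrophages, had an FPKM of 13.6 and 5.73, and its interval (0.543 to 22.8 for the fold lower) included no difference. Vtn (vitronectin, which blocks pore formation), Itgax (a chain of complement receptor 4) and Cd59b had an FPKM of 2.68, 1.6 and 1.52 in BMT and 0 in the other, and the 24 reads of Cd59b lay under the floor of BMT. The genes called higher were C1rl, a C1r-like protease, at 1.51 and 4.46, and C6, a component of the pore, at 0.278 and 1.66. The interval of the C1rl ratio (0.464 to 17.2) included no difference. The 12 and 63 reads of C6 lay under the floor of each library, so no fold is given. The most abundant genes of the list lay within 2-fold. They were Calr (calreticulin, a chaperone that C1q can bind, 227 and 184), Itgb2 (the beta chain of complement receptors 3 and 4, 89.4 and 97.6), C1qbp (a mitochondrial C1q-binding protein, 74.5 and 77.8) and Fcnb (a ficolin of myeloid cells, 65.5 and 69.9).

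The number of genes with reads and the cell-type transcripts differed between the libraries as well. The recovered reads came to 10869191 in BMT and 11299834 in aGVHD_V, on 15477 and 12310 genes. Of the members, 7 had reads in BMT and 0 in aGVHD_V, and 1 the reverse. The same count over all genes was not made, and the floor was higher in aGVHD_V (132 against 42 reads). This split is therefore not read as a trait of the members. Over all measured genes 19.4% were at least 2-fold lower and 8.65% higher, the shares to set beside the marker counts here. Of 20 mesenchymal stromal markers 19 were at least 2-fold lower in aGVHD_V and 0 higher (median -3.12), and their summed FPKM was 1542 and 317. Of these 19, 2 had no reads in aGVHD_V and so had to be called. Cxcl12 stood at 346 and 14.6, and Lepr, which marks these cells, at 29.5 and 0. Of 13 measured endothelial markers 9 were lower (median -1.34, summed FPKM 125 and 34.2), and Cdh5 was at 10.9 and 0. Among these 9, 4 had no reads in aGVHD_V and passed the minimum only through BMT, so they had to be called. Of 19 measured macrophage markers 5 were lower, 2 higher and 12 within 2-fold (median -0.6, summed FPKM 1113 and 1079, most of it Lyz2), and Vcam1 stood on this list and on the mesenchymal one. Next to the C1q sum of 121 and 125, Adgre1 was at 5.73 and 2.72, Csf1r at 11.5 and 8.29 and Cd68 at 27.6 and 16.6, whereas Lyz2 was at 942 and 992, Mertk at 2.53 and 3.07 and Fcgr1 at 3.41 and 4.75. The macrophage markers called higher were Ms4a7 (0.167 and 2.15) and Marco (0 and 2.0), both under the floor in each library. All 12 neutrophil markers lay within 2-fold (median 0.26, summed FPKM 15431 and 20856), and 4 of 9 erythroid markers were higher (median 0.78, summed FPKM 37392 and 132402). The 8 hepatocyte markers, albumin included, had 0 reads in both libraries. Blood cell transcripts were present despite the sort. Ptprc, which encodes CD45, stood at 9.28 and 7.85, and Tfrc, which encodes CD71, at 160 and 269. In both libraries the summed FPKM of the erythroid and of the neutrophil markers exceeded that of the mesenchymal ones. The part of these lists in the complement differences was not tested, and in such bulk libraries fewer cells of a type and less RNA per cell cannot be told apart.

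**Figure D4:**
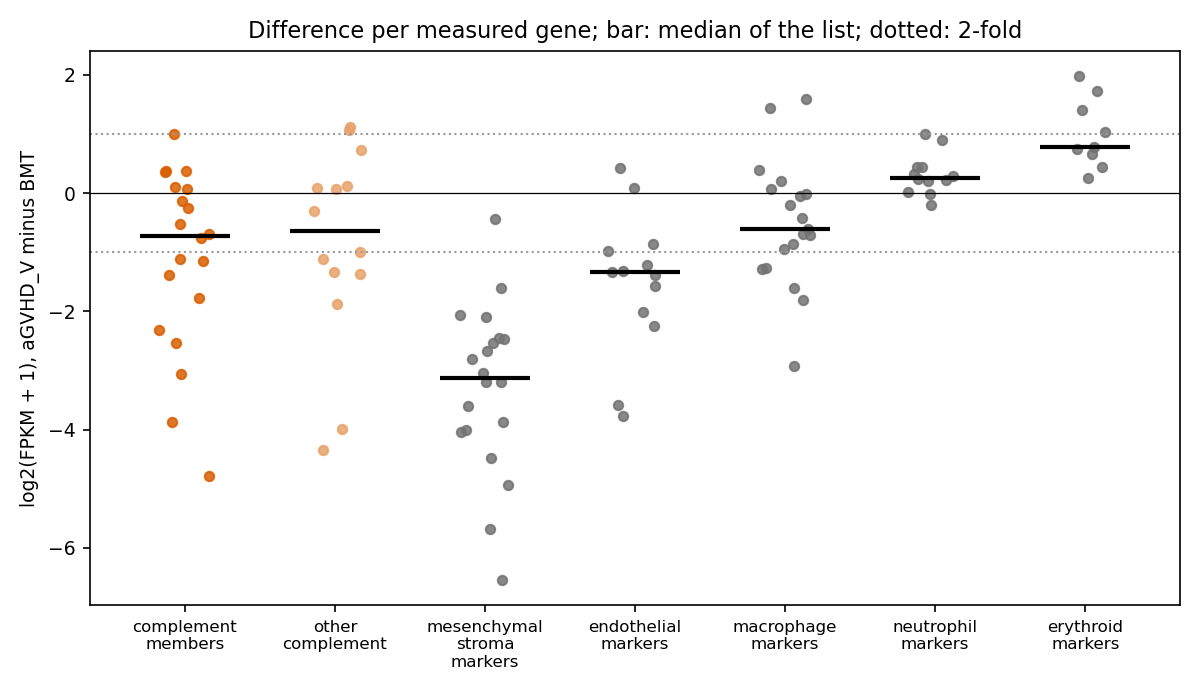
Difference in log2(FPKM + 1), aGVHD_V minus BMT, for each measured gene (points) of the complement members, the other complement genes and 5 marker lists, with bars at the medians and dotted lines at 2-fold. The complement members ran from -4.78 to 0.995 around a median of -0.72, and the median of the other complement genes was -0.65. The marker medians were -3.12 (mesenchymal), -1.34 (endothelial), -0.6 (macrophage), 0.26 (neutrophil) and 0.78 (erythroid).

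With the FPKM of each library scaled to the same sum, which moved the median ratio of all genes by -0.58 on the log2 scale, 15 of 24 members then measured were lower and 1 (C3ar1) higher, beside 38.4% and 6.09% of all measured genes. This setting also raised the level of both libraries and so brought more genes past the minimum. With aGVHD_V alone rescaled to the FPKM sum of BMT, which gave the same shift of -0.58, 11 of 20 were lower and 0 higher, beside 29.1% and 4.32%.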

How the data were processed

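RNA of sorted mouse marrow niche cells was sequenced in 2 libraries, assigned to BMT and aGVHD_V from their titles. The authors deposited FPKM per gene with gene length and position, per the file headers. edgeR 3.18.1 and the builds GRCm38 and mm10 are named in the submitters' processing notes, while the aligner, counter and strand setting were not given in the sources used here. Of the columns of sample values, 1 had no matching label and was left out. FPKM times gene length gave whole multiples of 1 step per library for 100% of values above 0 (tolerance 0.05), from which reads were recovered. The modal read number (window of 7, read numbers under 4 left out) was 14 and 44. Reads divided by it gave exact conditional binomial (Clopper-Pearson) 95% intervals of ratios and exact Poisson intervals of levels, which cover counting error only and rest on the assumption that a modal number of reads stands for 1 count. The floor was 3 such counts per library, 42 and 132 reads. A fold against 0 reads is a bound against that floor, without the counting error of the other library. None is given where it would not exceed 1. Intervals and calls were also run on simulated Poisson counts built with the same modal read numbers. That run could not check the assumption itself, and it held no variation between replicates. Positions of 27 of the 29 members equalled those of GENCODE M21. Transcripts of paralogs were aligned locally with Biopython 1.88. Python 3.11.15, pandas 2.3.3 and scipy 1.17.1 were used. A planned comparison of member proteins was not run.

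All 29 members are named. Of the other complement genes, those measured and at least 2-fold different and the 4 with the highest mean FPKM are named, except 1 gene that is counted but, like 1 motif, not reported here. The members, lists and the 6 marker lists were chosen with earlier results of these data known. 8 alternative settings changed the pseudocount, the scaling or the minimum FPKM, and 3 more were chosen after seeing the data.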

Additional observations from a re-analysis of the deposited data

How the results depend on the processing

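No paired analysis was possible because each group had 1 library, and for the same reason no library could be left out. The members counted as lower were 15 with an equal FPKM sum of 1000000 per library and between 7 and 11 under the other settings, beside 9 as deposited. Over all genes measured under each setting, the share lower ran from 3.89% with a pseudocount of 5 to 38.4% with the equal FPKM sum. The share higher ran from 2.05% without a filter to 11.4% with a pseudocount of 0.1. Counts of different settings are therefore not directly comparable. The count of higher members was 1 with a pseudocount of 0.1 or upper-quartile scaling (Cd59a) and 1 with the equal FPKM sum (C3ar1). The median difference of the measured members stayed below 0 and was -0.45 without a filter, -0.83 with a pseudocount of 0.1, -0.31 with a pseudocount of 5, -1.2 with the equal FPKM sum, -0.89 when scaled without hemoglobin, mitochondrial and ribosomal protein genes, -0.95 with library sizes of all recovered reads, -1.13 with aGVHD_V alone rescaled, and -0.39 with genes without reads at their floor. Of the other complement genes, 10 were lower with the equal FPKM sum, 3 at an FPKM minimum of 5, 2 with a pseudocount of 5 and 3 at the floor. The shares lower over all measured genes were 38.4%, 10.7%, 3.89% and 7.63% in that order. The higher ones among them numbered 0 with a pseudocount of 5, the minimum of 5, library sizes of all recovered reads or aGVHD_V alone rescaled, and 1 when scaled without hemoglobin, mitochondrial and ribosomal protein genes. A stricter minimum tests fewer genes by construction. For the other settings the cause was not tested.

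Of 96 ratios of single members under the scaling alternatives 94 stayed within the widened interval. The exceptions were C3 with the equal FPKM sum and with aGVHD_V alone rescaled (0.561). Ratios of C1qa, C1qc, C1rb, C5ar1 and Cfp crossed 1 under at least 1 scaling. With reads taken as independent, 10 ratios below 1 and 4 above 1 had intervals that left out 1, against 4 and 0 with the widened intervals. The floor limits genes at or under 42 reads in BMT and 132 in aGVHD_V. No fold is given where both libraries are at or under these floors, and the folds of C1s1, Cfd and C2 rest on 47, 65 and 66 reads in aGVHD_V, under its floor.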

Other observations

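C4b, C4a, Cfb and C2 lie together on chromosome 17 (34728380 to 34898265, GRCm38), in the class III region of the major histocompatibility complex, with genes that are not part of complement. Within that span 5 other genes were measured, and 4 of them lay within 2-fold. Over all measured genes 19.4% were at least 2-fold lower and 8.65% higher. Stk19 had an FPKM of 13.6 in BMT and 13.4 in aGVHD_V, Dxo (a decapping enzyme) 16.2 and 18.7, Skiv2l (a helicase of RNA decay) 22.3 and 20.8, and Nelfe (a subunit of the negative elongation factor) 24.9 and 26.7. Zbtb12, a zinc finger gene that overlaps C2 on the opposite strand, had 3.51 and 0.743 from 86 and 16 reads. C4b was at 81.1 and 15.5 in the same stretch. These neighbours were taken as all measured genes in the span.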
